A study of Homo sapiens with 12 samples.

Results

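The EGFR family genes described here are the receptors EGFR, ERBB2 and ERBB3, the ligands AREG, EREG, HBEGF, TGFA, EPGN and BTC, and the receptor inhibitor ERRFI1. These 10 genes were chosen by name, and all 10 were found among the 29657 genes listed for SCC15 cells and the 31055 genes listed for SCC25 cells. In both cell lines, the transcripts of the 3 receptors were lower and those of AREG and HBEGF higher with squamocin than with DMSO. BTC fell sharply in SCC25, where the fall was larger than in SCC15, and ERRFI1 rose in SCC15 and fell slightly in SCC25.

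EGFR family receptors sit in the plasma membrane and are switched on when a ligand lets them pair and phosphorylate each other, which passes a signal to the RAS-ERK and PI3K-AKT pathways. Their ligands are made as membrane-bound precursors that proteases cut loose, so that a cell can stimulate itself or its neighbours. ERRFI1, also called MIG6, binds the kinase domain of active receptors and shuts it down, and its gene is itself switched on by growth factor signals. EGFR is often abundant in HNSCC and is the target of the antibody cetuximab in this cancer.

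Transcripts were measured by RNA-seq in SCC15 and SCC25, human HNSCC cell lines labelled as wild type oral squamous cells, after 24 h in squamocin or in DMSO, the solvent control. Squamocin is an annonaceous acetogenin, a compound from the seeds of Annona squamosa, and the libraries treated with it are labelled ACGs. Each of the 4 groups held 3 libraries. Each cell line is a single established line, and no label says whether the 3 libraries of a group came from separate cultures, so that the p-values measure only the spread between these libraries. The libraries held from 16665563 to 22748845 reads on genes.

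The squamocin replicate 3 library of SCC15 stood apart from its replicates, with 8.20% of its reads on its 10 most abundant genes against 6.20% and 6.29%. Several SCC15 values of the members are given with and without it. Fold changes of other genes in SCC15 are given only with it. The cells' squamous markers were checked against the labels. In SCC25, 10 of 10 markers exceeded 1 RPM, the reads of a gene scaled to a common library total, in both treatments, and in SCC15, 7 of 10 did with DMSO and 6 with squamocin. KRT5, DSG3 and EPCAM lay between 0.055 and 0.74 RPM in SCC15, where KRT17 carried most of the summed level. TP63 was low there too, at 1.13 RPM with DMSO and 0.49 with squamocin, against 247 and 321 in SCC25. The squamous sum lay between 7333 and 7720.0 RPM with DMSO and between 10242 and 14764 with squamocin in SCC15, and between 1670.2 and 1690.3 and between 2604 and 2769 in SCC25. Reads of the mitochondrial genome made up 0.80% to 0.96% of each squamocin library in SCC15 against 1.69% to 1.73% with DMSO, and 2.45% to 3.50% against 4.37% to 4.54% in SCC25. Markers of other cell types moved with the treatment too. Of 5 leukocyte markers 4 were listed in each cell line, and their sum lay between 15.8 and 20.4 RPM with squamocin and between 32.2 and 35.1 with DMSO in SCC15, and between 0.98 and 1.43 and between 18.2 and 23.2 in SCC25. CD14 made up most of the DMSO sums, with a mean of 32.5 RPM in SCC15 and 19.2 in SCC25, while PTPRC, which defines leukocytes, was at 0.20 RPM with DMSO in SCC15 and was not analysed in SCC25. The endothelial sum (2 of 3 markers listed in SCC15, 3 of 3 in SCC25) lay between 3.13 and 3.67 RPM with squamocin and between 10.2 and 11.5 with DMSO in SCC15, and between 0.93 and 1.75 and between 12.6 and 16.1 in SCC25. The fibroblast sum (6 of 6 listed) lay between 19.6 and 23.6 RPM with squamocin and between 45.6 and 50.7 with DMSO in SCC15, and between 50.6 and 58.7 and between 41.8 and 44.3 in SCC25, where DCN was at 0 with squamocin. The part of these shifts in the results was not tested.

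Values are normalized counts, that is, counted reads after division by a size factor of the library. Fold changes are on the scale of log2(normalized count + 1), and a gene was called when the adjusted p of limma, taken over all genes tested in the cell line, was below 0.05. The deposited scaling left the squamocin libraries with larger totals than the DMSO libraries, and scaling all libraries to equal totals lowered the median log2 fold change of all genes by 0.49 in SCC15 and by 0.21 in SCC25. Fold changes of the members, and of the genes named with them from overlaps and lists, are therefore given under both scalings.

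In SCC15, 6 of the 10 members were called higher, 3 lower and 1 was not called, while 30.9% of all 15902 genes tested were called higher and 30.0% lower. With equal library totals, 3 members were higher, 4 lower and 3 not called, against 14.8% and 50.5% of all genes. In SCC25, 9 members passed the minimum mean of 10 normalized counts, of which 4 were called higher and 5 lower, against 38.3% and 38.5% of all 16539 genes tested. Equal totals turned these counts into 3 higher, 5 lower and 1 not called, against 30.4% and 47.4% of all genes. The median log2 fold change of the members was 0.41 in SCC15 and -0.16 in SCC25, or -0.087 and -0.37 with equal totals. Values are of whole cultures, so that fewer cells of a kind and less RNA per cell cannot be told apart. EPGN, with a mean below the minimum, was the member left out in SCC25.

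**Figure D1:**
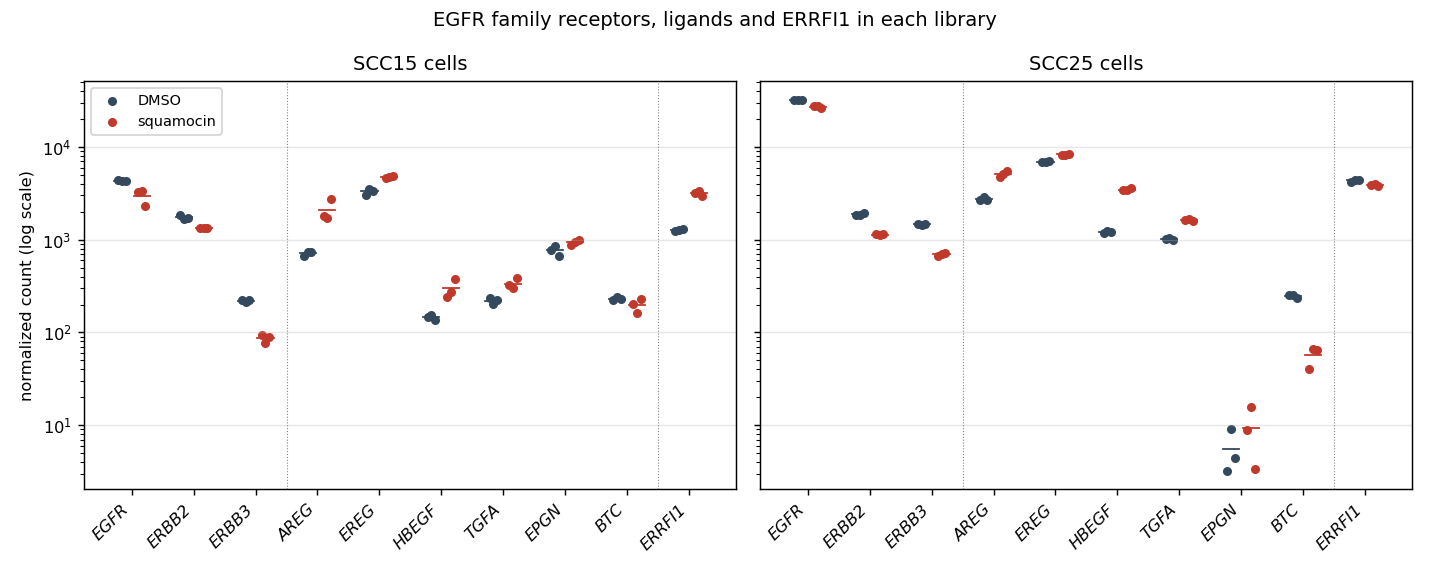
Normalized counts (log scale) of the 10 members in each of the 12 libraries, with SCC15 on the left and SCC25 on the right. Points are libraries, short lines are the means of 3 libraries, and dotted lines separate receptors, ligands and ERRFI1. The 3 squamocin libraries of EGFR, ERBB2 and ERBB3 lie below the 3 DMSO libraries in both cell lines, and those of AREG and HBEGF lie above them.

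Among the receptors, EGFR (ENSG00000146648, GRCh38 chr7:55019021-55211628) encodes the receptor that AREG, TGFA, EPGN and the other ligands here bind. In SCC15 it held 4365, 4347 and 4311 normalized counts with DMSO, and 3267, 3355 and 2317 with squamocin. All squamocin libraries lay below all DMSO libraries, and replicate 3 was the lowest. The log2 fold change was -0.56 (SE 0.15, adjusted p = 0.0123 by limma), or -1.06 with equal totals, and -0.39 when squamocin replicate 3 was left out. The SCC25 libraries held 31972, 32254 and 32466 normalized counts with DMSO, and 27599, 27755 and 26406 with squamocin. The groups did not overlap, and the fall was small, with a log2 fold change of -0.24 (SE 0.036, adjusted p = 4.79e-05 by limma), or -0.45 with equal totals.

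ERBB2 (GRCh38 chr17:39687914-39730426), the partner receptor that has no known ligand of its own, also fell in both cell lines. The SCC15 libraries held 1867, 1686 and 1699.7 normalized counts with DMSO, and 1323, 1323 and 1343 with squamocin. The libraries of each treatment were close to each other and the groups did not overlap, with a log2 fold change of -0.40 (SE 0.080, adjusted p = 0.00419 by limma), or -0.89 with equal totals. In SCC25 its 1859, 1856 and 1945 normalized counts with DMSO dropped to 1139, 1114 and 1142 with squamocin. This was a log2 fold change of -0.74 (SE 0.047, adjusted p = 1.59e-08 by limma), or -0.94 with equal totals.

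ERBB3 (GRCh38 chr12:56076799-56103505), a neuregulin receptor with a weak kinase of its own, had the largest fall of the 3 receptors in each cell line. In SCC15 it held 224, 214 and 222 normalized counts with DMSO, and 92.7, 77.5 and 88.3 with squamocin. The squamocin values were well below the DMSO values, with a log2 fold change of -1.34 (SE 0.12, adjusted p = 0.000129 by limma), or -1.84 with equal totals. In SCC25 the values were 1479, 1437 and 1467 with DMSO, and 666, 699 and 727 with squamocin. Here too all squamocin libraries lay below, with a log2 fold change of -1.07 (SE 0.054, adjusted p = 1.88e-09 by limma), or -1.27 with equal totals.

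The share of each receptor in the summed receptor reads of a library does not depend on how libraries are scaled, and was taken per kilobase of exon. In SCC25, EGFR made up 86.8% ± 0.17 (SD, n = 3) of the receptor sum with DMSO and 91.0% ± 0.38 (SD, n = 3) with squamocin, so that the libraries of the treatments did not overlap. ERBB2 went from 7.85% to 5.84% and ERBB3 from 5.36% to 3.17% there. With 3 libraries against 3, the exact permutation test cannot give a p below 0.1, and it gave 0.1 for all 3 receptors in SCC25. In SCC15, ERBB3 went from 4.07% to 2.30% (exact permutation p = 0.1), while EGFR went from 59.1% ± 1.17 to 57.5% ± 5.30 (exact permutation p = 1) and ERBB2 from 36.8% to 40.2% (exact permutation p = 0.3). The difference of the EGFR share in SCC15, -1.65 percentage points over all libraries, was 1.40 without squamocin replicate 3, and that of ERBB2, 3.42 points over all libraries, was 0.55 without it.

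Among the ligands, EPGN, EREG, AREG and BTC lie in a row on chromosome 4. From the start site of EPGN, those of EREG, AREG and BTC lie 56.7, 137 and 486 kb away, with BTC on the opposite strand. Of the other genes of the tables between them, the antisense AC021180.1 and AC239584.1, the highest mean was 1.67 normalized counts. Their promoters are shown because these neighbours moved unlike each other, as the values after them show. Each line holds the 120 bases before the start site (RefSeq, GRCh38.p14), 5′ to 3′ on the strand of the gene, with 2 motifs in capitals, the TATA box spelled TATAAA and the cAMP response element spelled TGACGTCA. The windows are chr4:74445016-74445135 for AREG, chr4:74365025-74365144 for EREG, chr4:74308350-74308469 for EPGN, all on the + strand, and chr4:74794524-74794643 for BTC on the - strand.
AREG: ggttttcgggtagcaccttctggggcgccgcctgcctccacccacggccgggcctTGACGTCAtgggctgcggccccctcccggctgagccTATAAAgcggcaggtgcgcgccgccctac
EREG: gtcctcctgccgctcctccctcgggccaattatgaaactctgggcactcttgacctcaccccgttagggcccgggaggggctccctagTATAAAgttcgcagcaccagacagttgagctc
EPGN: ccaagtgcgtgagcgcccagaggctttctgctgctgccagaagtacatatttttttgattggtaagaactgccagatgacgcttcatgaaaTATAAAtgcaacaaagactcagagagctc
BTC: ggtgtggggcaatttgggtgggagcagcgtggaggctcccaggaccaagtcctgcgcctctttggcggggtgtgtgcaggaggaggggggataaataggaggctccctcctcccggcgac
AREG, EREG and EPGN have a TATAAA that lies between 29 and 32 bases before the start site, and BTC has none in this window. Only the exact spelling was searched, so that a near match such as gataaata in BTC was not counted. AREG alone of the 4 has a TGACGTCA, 65 bases before its start site. On either strand of the promoters (250 bases before to 50 after a start site), 11.5% of 35116 promoters hold a TATAAA and 1.85% a TGACGTCA. The AP-1 motif TGANTCA (7.71% of promoters), the CARE motif TGATGNAA (3.62%) and the E-box CACGTG (7.26%) were searched as well and were not in the promoters of these 4 genes. The motifs were picked with the data already known, and a match is not evidence that a factor binds there. Promoters were found for 9 of the 10 members.

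AREG, the ligand amphiregulin (GRCh38 chr4:74445134-74455009), rose in both cell lines. In SCC15 it held 667, 732 and 735 normalized counts with DMSO, and 1793, 1720.1 and 2729 with squamocin. All squamocin libraries lay above all DMSO libraries and replicate 3 was the highest, with a log2 fold change of 1.52 (SE 0.18, adjusted p = 0.000337 by limma), 1.02 with equal totals, and 1.30 without replicate 3. In SCC25 the values were 2655, 2872 and 2687 with DMSO, and 4729, 5147 and 5515 with squamocin. The groups were well apart, with a log2 fold change of 0.90 (SE 0.056, adjusted p = 1.32e-08 by limma), or 0.70 with equal totals.

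HBEGF, the heparin-binding ligand (GRCh38 chr5:140332843-140346631), also rose in both. The SCC15 libraries held 145, 155 and 135 normalized counts with DMSO, and 242, 276 and 381 with squamocin. The groups did not overlap, replicate 3 was again the highest, and the log2 fold change was 1.02 (SE 0.18, adjusted p = 0.00203 by limma), 0.52 with equal totals, and 0.83 without replicate 3. In SCC25 it went from 1181, 1251 and 1206 with DMSO to 3420.3, 3398 and 3615 with squamocin. This was the largest rise of a member in SCC25, 2.87-fold on average, with a log2 fold change of 1.52 (SE 0.046, adjusted p = 2.31e-11 by limma), or 1.31 with equal totals.

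EREG, the ligand epiregulin (GRCh38 chr4:74365143-74388751), rose under the deposited scaling and not with equal totals. The SCC15 libraries held 3040.4, 3534 and 3367 normalized counts with DMSO, and 4578, 4789.8 and 4825 with squamocin. The groups were apart under the deposited scaling, with a log2 fold change of 0.52 (SE 0.090, adjusted p = 0.00207 by limma), but with equal totals it was 0.018 and not called (adjusted p = 0.881 by limma). In SCC25 the values were 6899, 6917 and 6986 with DMSO, and 8239, 8221 and 8493 with squamocin. The log2 fold change of 0.26 (SE 0.036, adjusted p = 2.23e-05 by limma) was 0.054 with equal totals and not called (adjusted p = 0.198 by limma).

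TGFA, the gene of transforming growth factor alpha (GRCh38 chr2:70447280-70554193), rose in SCC25 under both scalings and in SCC15 only under the deposited one. The SCC15 libraries held 233, 204 and 223 normalized counts with DMSO, and 323, 302 and 383 with squamocin. The log2 fold change was 0.61 (SE 0.12, adjusted p = 0.00439 by limma), and 0.11 with equal totals (adjusted p = 0.376 by limma). In SCC25 the values were 1015, 1039 and 987 with DMSO, and 1631, 1669 and 1579 with squamocin. All squamocin libraries lay above, with a log2 fold change of 0.68 (SE 0.049, adjusted p = 5.77e-08 by limma), or 0.47 with equal totals.

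EPGN, the ligand epigen (GRCh38 chr4:74308473-74315307), passed the minimum mean in SCC15 and not in SCC25. Its SCC15 libraries had 781, 859 and 668 normalized counts with DMSO, and 888, 953 and 1003 with squamocin. The nearest values of the groups, 859 and 888, were close, and its log2 fold change of 0.31 (SE 0.11, adjusted p = 0.0486 by limma) was -0.19 and not called with equal totals (adjusted p = 0.173 by limma). The call was also lost with edgeR, with TMM factors, with no filter on low values, and when squamocin replicate 1 or 2 or DMSO replicate 1 or 3 was left out. In SCC25 its values ran from 3.22 to 8.995 normalized counts with DMSO and from 3.33 to 15.6 with squamocin, too low to be tested.

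BTC, the gene of betacellulin (GRCh38 chr4:74744759-74794686), which can also bind ERBB4, was the ligand that fell. In SCC25 it held 251, 251 and 237 normalized counts with DMSO, and 40.7, 66.6 and 64.4 with squamocin. All squamocin values lay far below, 4.35-fold lower on average, with a log2 fold change of -2.12 (SE 0.18, adjusted p = 2.01e-07 by limma), or -2.33 with equal totals. In SCC15 the values were 223, 239 and 229 with DMSO, and 201, 162 and 228 with squamocin, so that the groups overlapped. The log2 fold change of -0.24 was not called (95% interval -0.57 to 0.098, adjusted p = 0.186 by limma). It was -0.35 and called without squamocin replicate 3 (adjusted p = 0.00867 by limma), and -0.73 and called with equal totals (adjusted p = 0.00162 by limma).

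**Figure D2:**
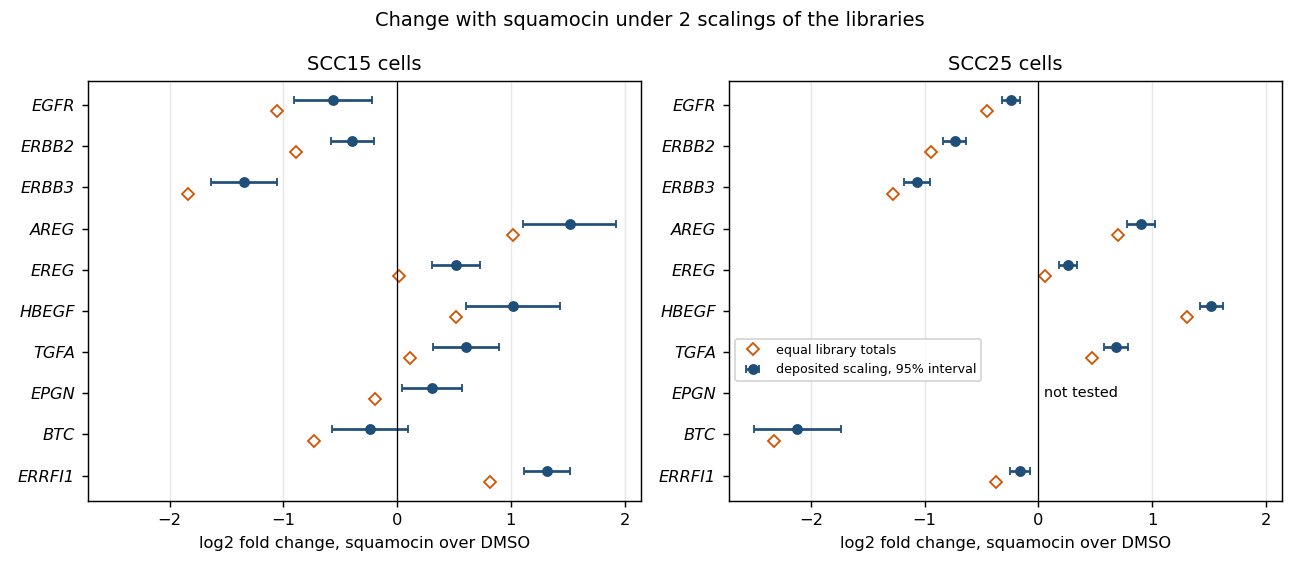
Log2 fold change, squamocin over DMSO, of each member under the deposited scaling (filled points, with the 95% interval of limma) and with equal library totals (open diamonds), in SCC15 on the left and SCC25 on the right. The open diamonds lie to the left of the points by about the shift of the median of all genes, 0.49 in SCC15 and 0.21 in SCC25, which puts EREG near 0 in both cell lines.

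ERRFI1, the receptor inhibitor (GRCh38 chr1:8004404-8026308), moved in opposite directions in the cell lines. In SCC15 it held 1241, 1275 and 1316 normalized counts with DMSO, and 3219, 3385 and 2940.2 with squamocin. The squamocin values were well above, with a log2 fold change of 1.31 (SE 0.086, adjusted p = 3.51e-05 by limma), 0.82 with equal totals, and 1.37 without squamocin replicate 3. In SCC25 the values were 4217, 4426 and 4454 with DMSO, and 3887, 4023 and 3807 with squamocin. The groups did not overlap but were close, with a log2 fold change of -0.16 (SE 0.042, adjusted p = 0.00359 by limma), or -0.37 with equal totals.

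Whether the cell lines differed in their response was tested as a contrast over the 14454 genes tested in both, of which 52.2% were called. Among the 9 members tested, 6 were called, 5 with a larger log2 fold change in SCC15 and 1 with a larger one in SCC25. With equal totals 6 were called as well, 2 and 4, and the share of all genes was not taken there. The firmest were ERRFI1 and BTC. The response of ERRFI1 was 1.47 higher in SCC15 (SE 0.095, adjusted p = 1.34e-07 by limma), or 1.18 with equal totals, and that of BTC was 1.88 higher, which means less of a fall (SE 0.25, adjusted p = 4.79e-05 by limma), or 1.59 with equal totals. Both were called without any single library.

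The other differences depended on the scaling or on single libraries. That of AREG was 0.61 (adjusted p = 0.0194 by limma) and was not called with equal totals, at 0.32 (adjusted p = 0.0810 by limma), or without SCC25 squamocin replicate 1 (0.55, adjusted p = 0.0520 by limma). Without SCC15 squamocin replicate 3 it was 0.40 and called. ERBB2 fell less in SCC15 by 0.34 (adjusted p = 0.00560 by limma), but by 0.051 and with no call with equal totals. The response of HBEGF was lower in SCC15, at -0.50 (adjusted p = 0.0354 by limma), or -0.79 with equal totals. It lost its call in 10 of the 12 fits with 1 library left out, all but those without replicate 3 of SCC15 squamocin or of SCC15 DMSO, while its value ran from -0.69 to -0.36. The difference of EREG, 0.25 (adjusted p = 0.0412 by limma), was -0.036 with equal totals and lost its call in 8 of those 12 fits, all but those without SCC15 squamocin replicate 1 or 3, SCC15 DMSO replicate 2 or SCC25 squamocin replicate 3. No difference was called for EGFR (-0.32, 95% interval -0.67 to 0.030), ERBB3 (-0.28, 95% interval -0.54 to -0.017 before adjustment) or TGFA (-0.076, 95% interval -0.36 to 0.20). These 3 were called with equal totals, at -0.61, -0.56 and -0.36. EGFR was also called without SCC15 squamocin replicate 2 (-0.42) or 3 (-0.15), and ERBB3 without replicate 1 (-0.33) or 3 (-0.30) of that group, and with TMM factors (-0.31).

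Levels of different genes can be compared only per length, here as RPM per kilobase of exon. In SCC15 with DMSO, EREG was the most abundant member at 37.4 ± 2.82 (SD, n = 3), followed by AREG at 27.9, ERRFI1 at 19.7, EGFR at 17.6, EPGN at 15.04, ERBB2 at 10.9, BTC at 5.59, HBEGF at 3.13, TGFA at 2.88 and ERBB3 at 1.21. Only the ranges of the neighbours HBEGF and TGFA overlapped. With squamocin AREG came first at 57.0 ± 9.16 (SD, n = 3), and EGFR came after EPGN at 8.67 with a range that overlapped that of ERBB2, as did those of the neighbours EREG and ERRFI1 and of BTC and TGFA. In SCC25 with DMSO, EGFR came first at 111 ± 1.12 (SD, n = 3), before AREG at 91.2, EREG at 66.4, ERRFI1 at 57.1, HBEGF at 22.2, TGFA at 11.3, ERBB2 at 9.998, ERBB3 at 6.82, BTC at 5.08 and EPGN at 0.092. No neighbours overlapped there. With squamocin AREG, at 148 ± 12.3 (SD, n = 3), lay above EGFR at 80.9, and HBEGF stood at 55.1. The cell lines were scaled separately, so that levels between them are set side by side without a test.

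The make-up of the ligand transcripts, as shares of the summed ligand reads per kilobase, held more AREG in the squamocin libraries of both cell lines. In SCC15, AREG made up 30.4% ± 1.08 (SD, n = 3) with DMSO and 47.7% ± 5.15 (SD, n = 3) with squamocin, and in SCC25 46.5% ± 0.85 and 51.2% ± 1.51. EREG held a smaller share in both, from 40.6% to 32.0% in SCC15 and from 33.8% to 23.9% in SCC25. BTC went from 6.08% to 2.83% and from 2.59% to 0.352%. HBEGF went from 11.3% to 19.1% in SCC25, while in SCC15 it held 3.40% and 3.79% (exact permutation p = 0.3), a difference of 0.38 percentage points, or 0.23 without squamocin replicate 3. Without that library the SCC15 differences were 14.4 points for AREG, against 17.4, and -6.29 for EREG, against -8.66. EPGN went from 16.3% to 11.1% in SCC15. TGFA held 3.15% and 2.61% in SCC15 and 5.75% and 5.43% in SCC25 (exact permutation p = 0.2 in each). The other shares named here had an exact permutation p of 0.1, the smallest that 3 libraries against 3 allow. Without division by length EREG was the larger part, going from 61.4% to 55.3% in SCC15 and from 57.1% to 44.7% in SCC25. AREG then went from 13.2% to 24.0% in SCC15 and from 22.5% to 27.5% in SCC25.

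**Figure D3:**
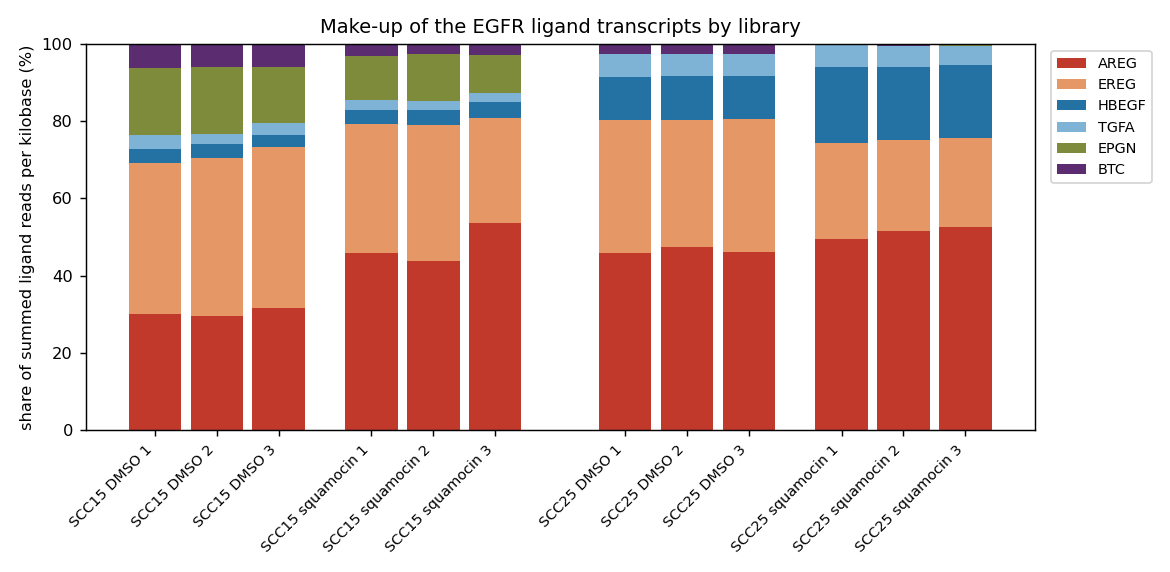
Share (%) of each ligand in the summed ligand reads per kilobase of exon, 1 bar per library, with DMSO and squamocin libraries side by side in each cell line. AREG takes 43.8% to 53.6% of each SCC15 squamocin library and 29.6% to 31.6% of each SCC15 DMSO library, and the share of BTC is smaller with squamocin in both cell lines.

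The ratio of ligand to receptor transcripts was higher in every squamocin library than in any DMSO library of the same line. The summed ligands over the summed receptors, in reads per kilobase, came to 2.86, 3.32 and 3.12 in the DMSO libraries of SCC15, and to 6.99, 6.92 and 10.96 in the squamocin libraries. The groups did not overlap, and the high value was that of squamocin replicate 3. The mean was 2.68-fold higher, from 3.10 ± 0.23 to 8.29 ± 2.31 (SD, n = 3, exact permutation p = 0.1), or 2.24-fold without that library. In SCC25 the ratio was 1.52, 1.59 and 1.51 with DMSO, and 3.06, 3.19 and 3.50 with squamocin. It was 2.11-fold higher there, from 1.54 ± 0.039 to 3.25 ± 0.22 (SD, n = 3, exact permutation p = 0.1). Both sums moved, in RPM per kilobase. In SCC15 the ligand sum was 87.4 to 97.1 with DMSO and 115 to 126 with squamocin. The receptor sum there was 29.2 to 30.5 and 11.5 to 16.7. In SCC25 the ligand sum was 192 to 202 with DMSO and 275 to 306 with squamocin. The receptor sum there was 126 to 129 and 87.5 to 89.8. Unlike the ratio, these sums depend on the scaling. The ratio does not depend on the scaling of the libraries, but its level rests on the exon lengths used. It was picked with the data already known.

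Some members overlap other genes, most on the opposite strand, and whether the counting used the strand is not given in the sources used here. EGFR-AS1 (GRCh38 chr7:55179750-55188934), an antisense transcript within the EGFR span, shares 186 exonic bases with EGFR (GENCODE 44), which is 6.53% of its own exons and 1.17% of those of EGFR. It rose where EGFR fell. In SCC15 it went from 17.9, 13.4 and 17.5 normalized counts with DMSO to 59.1, 70.7 and 32.4 with squamocin, with a log2 fold change of 1.61 (adjusted p = 0.00409 by limma), or 1.13 with equal totals. In SCC25 it went from 118, 105 and 119 to 429.6, 408 and 504, with a log2 fold change of 1.96 (adjusted p = 3.68e-09 by limma), or 1.75 with equal totals. MIEN1, which shares 571 exonic bases with ERBB2 or 5.53% of the ERBB2 exons, rose in both, by 1.499 in SCC15 and 1.14 in SCC25 on the log2 scale, or 1.002 and 0.93 with equal totals. PGAP3, with 144 bases shared, was at 0.53 in SCC15, or 0.032 and not called with equal totals, and fell in SCC25 at -0.42, or -0.63 with equal totals. TGFA-IT1, on the same strand as TGFA and within its span, and AL034417.4, antisense to ERRFI1, were too low to be tested.

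Of the other family genes, NRG1, which encodes a neuregulin that binds ERBB3, rose in both cell lines. Its mean went from 152 ± 14.0 to 379.9 ± 57.8 normalized counts (SD, n = 3) in SCC15. The log2 fold change was 1.31 (adjusted p = 0.000255 by limma), or 0.81 with equal totals. In SCC25 it went from 127 ± 2.82 to 1086 ± 112 (SD, n = 3). The log2 fold change was 3.08 (adjusted p = 1.12e-11 by limma), or 2.87 with equal totals, a larger change than that of any member there. The neuregulins NRG2 and NRG4 fell in SCC15, at -1.10 and -0.89, or -1.597 and -1.37 with equal totals. In SCC25 they were at 0.0039 and 0.18, or -0.20 and -0.013 with equal totals, and were called under neither scaling. EGF, the gene of the founding ligand, was too low to be tested in SCC15 and was at -0.31 in SCC25 (adjusted p = 0.0689 by limma), or -0.51 and called with equal totals. The receptor gene ERBB4 was too low to be tested in either cell line, and NRG3 is not analysed here.

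The rest of the pathway was followed in 5 further lists of genes. Of the 6 lists together, 56 genes were tested in SCC15, with 19 called higher and 24 lower, and 58 in SCC25, with 31 and 16. With equal totals these became 10 and 35 in SCC15, and 26 and 25 in SCC25. Of all genes, 30.9% were called higher and 30.0% lower in SCC15, and 38.3% and 38.5% in SCC25. With equal totals these shares were 14.8% and 50.5% in SCC15, and 30.4% and 47.4% in SCC25. Against these shares, the lists are described by their members only.

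Ligand release covers the ADAM proteases that cut ligands loose and the iRhom proteins that carry ADAM17 to the surface. In SCC15, 1 of 6 genes tested was higher and 3 lower (1 and 4 with equal totals), and in SCC25 2 of 7 were higher and 4 lower (2 and 5). The iRhom gene RHBDF1 rose in both, with log2 fold changes of 1.40 and 1.78, or 0.90 and 1.57 with equal totals. FRMD8, whose protein stabilizes iRhoms, fell by 0.85 on the log2 scale in SCC15, and the second iRhom gene RHBDF2 fell by 1.12 in SCC25, or -1.34 and -1.33 with equal totals. Each fell in the other cell line too, FRMD8 at -0.83 in SCC25 and RHBDF2 at -0.39 in SCC15, or -1.04 and -0.89 with equal totals. The median log2 fold change of the list was -0.14 in SCC15 and -0.27 in SCC25, or -0.64 and -0.48 with equal totals.

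Receptor restraint and turnover holds the ubiquitin ligases of the CBL family, endocytic adaptors, LRIG proteins and phosphatases. In SCC15, 4 of 12 genes were higher and 4 lower (1 and 8 with equal totals), and in SCC25 8 of 13 were higher and 2 lower (7 and 5). The endocytic adaptor EPN1 rose in SCC15 by 0.85 on the log2 scale and CBL, which tags EGFR for degradation, fell there by 0.62, or 0.35 and -1.12 with equal totals. In SCC25, the related CBLB rose by 1.09, and LRIG3 fell by 1.86, or 0.88 and -2.06 with equal totals. CBL was called higher in SCC25, at 0.35, or 0.14 with equal totals. EPN1 was higher there at 0.19, or -0.017 and not called with equal totals. In SCC15, CBLB was higher at 0.75, or 0.26 and not called with equal totals. LRIG3 was lower there at -0.61, or -1.10 with equal totals.

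In the RAS-ERK cascade, 6 of 16 genes were higher and 5 lower in SCC15 (5 and 9 with equal totals), and 10 of 16 were higher and 4 lower in SCC25 (9 and 6). The kinase gene MAP2K2 rose in SCC15 by 1.13 on the log2 scale, and the receptor adaptor GAB1 fell by 1.98, or 0.63 and -2.47 with equal totals. In SCC25, NRAS rose by 1.45 and the adaptor SHC1 fell by 0.64, or 1.24 and -0.85 with equal totals. GAB1 was called higher in SCC25, at 0.46, or 0.26 with equal totals. MAP2K2 was not called there, at 0.046, or -0.16 and called with equal totals. In SCC15, NRAS was not called at 0.19, or -0.31 and called with equal totals. SHC1 was called under neither scaling there, at 0.50, or -0.0016 with equal totals. In the PI3K-AKT arm, 3 of 9 genes were higher and 5 lower in SCC15 (0 and 6 with equal totals), and 4 of 9 were higher and 3 lower in SCC25 (3 and 5). PIK3R1, a regulatory subunit of PI3K, fell by 1.91 in SCC15, and the kinase gene AKT1 fell by 0.87 in SCC25, or -2.41 and -1.07 with equal totals. PIK3R1 was not called in SCC25, at -0.18, or -0.39 and called with equal totals. AKT1 was higher in SCC15, at 0.34, or -0.16 and not called with equal totals.

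The ERK output genes are ones that ERK signalling is known to switch on. In SCC15, 4 of 10 were higher and 5 lower (2 and 6 with equal totals), and in SCC25 6 of 9 were higher and 3 lower (4 and 3), with medians of -0.11 and 0.29, or -0.61 and 0.087 with equal totals. PHLDA1 rose in SCC15 by 1.68 on the log2 scale and EPHA4 fell by 1.09, or 1.19 and -1.58 with equal totals. In SCC25, the ERK pathway inhibitor SPRY4 rose by 2.52 and the ERK phosphatase gene DUSP4 fell by 2.10, or 2.31 and -2.31 with equal totals. SPRY4 and DUSP4 were both lower in SCC15, at -0.65 and -0.48, or -1.15 and -0.97 with equal totals. PHLDA1 was higher in SCC25 too, at 0.55, or 0.34 with equal totals, and EPHA4 was too low to be tested there.

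**Figure D4:**
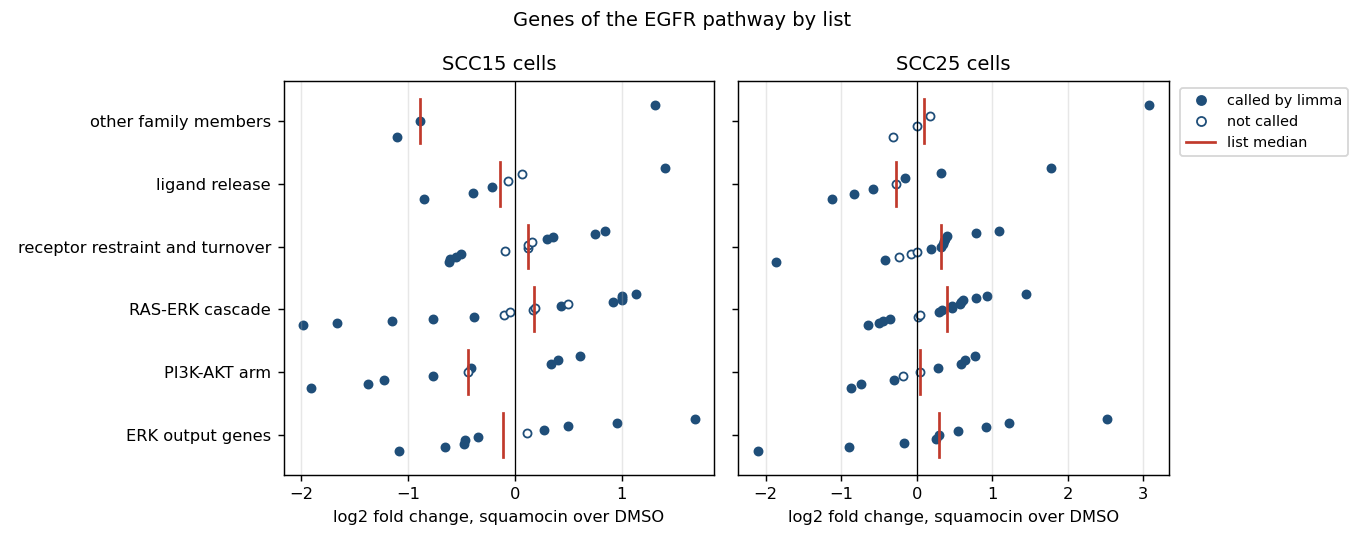
Log2 fold change, squamocin over DMSO, of each tested gene of the 6 lists under the deposited scaling, in SCC15 on the left and SCC25 on the right. Filled points were called by limma, open points were not, and red lines are list medians, which run from -0.89 to 0.18 in SCC15 and from -0.27 to 0.40 in SCC25.

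For 3 members, the genes with the most similar values were sought over the 12 libraries, among 9697 protein-coding genes with a mean of at least 100 normalized counts in each cell line. Likeness was the root mean square difference of log2 values, each relative to the DMSO mean of its cell line. The genes closest to EGFR were KDM2A at 0.044, PHF12 at 0.048 and TMEM131 at 0.056. Those closest to AREG were NACA at 0.082, BOD1 at 0.087 and RFNG at 0.096. ERRFI1 had NFKBIZ at 0.081, CDK18 at 0.10 and P4HB at 0.11, which like it were higher with squamocin in SCC15 (1.43, 1.22 and 1.36 on the log2 scale) and lower in SCC25 (-0.13, -0.20 and -0.33) under the deposited scaling. They were picked for closeness to these same values, so that the shared direction follows from the choice and is no separate result.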

How the data were processed

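RNA-seq libraries of SCC15 and SCC25 cells were grouped by their labels into squamocin (ACGs) and DMSO, 3 each. The authors aligned reads to GRCh38 with HISAT2 2.0.5 and counted them per gene with featureCounts 1.5.0-p3. The deposited signal is a normalized count, made by the authors by dividing counted reads by a library's size factor, set within each cell line. The SCC25 columns are headed fpkm, but their values are whole reads over 1 factor per library whatever the gene's length, and are treated as normalized counts. The deposited tables also hold the authors' own comparison (log2 fold changes and p-values), which was not used. Whole reads were recovered for 100% of the values in each library (tolerance 0.01), from 16665563 to 22748845 per library, and no columns were left unmapped.

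Log2(normalized count + 1) was tested with eBayes and a trend in limma 3.58.1 (R 4.3.3) for genes whose mean reached 10. Tests were two-sided, with Benjamini-Hochberg adjustment over all genes tested and a threshold of 0.05. The contrast of the cell lines used all 12 libraries. Shares were compared by exact two-sided permutation. Reads per kilobase used exon lengths of GENCODE 44, which held 33962 of the 34227 genes of either table. The alternatives were pseudocounts of 0.1 and 10, other filters, TMM factors, equal totals, whole-read tests in edgeR 4.0.16 and in DESeq2 1.42.0, a block for the replicate number, and each library left out. The scripts were tested on simulated data.

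The members, lists and rules were chosen with earlier results of these data known. Named were all 10 members, all other family members, the largest rise and fall called in each further list and cell line, genes that overlap a member, tested genes among the chromosome 4 ligands (none), and the 3 genes most like EGFR, AREG and ERRFI1. The motifs, the ligand over receptor ratio and the comparison of genes near EGFR were added with the data already known. Results for some single genes that this rule names are not reported here. The reads carry no molecular identifiers.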

Additional observations from a re-analysis of the deposited data

Results flagged for a closer look

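In 6 members the response to squamocin differed between the cell lines by the limma contrast, with values as the log2 fold change in SCC15 minus that in SCC25. These were BTC at 1.88, ERRFI1 at 1.47, AREG at 0.61, ERBB2 at 0.34, EREG at 0.25 and HBEGF at -0.50. ERRFI1 rose in SCC15 and fell in SCC25 under both scalings of the libraries. The differences of AREG, ERBB2 and EREG were not called with equal library totals, and those of HBEGF and EREG lost their call in most fits with 1 library left out, so that the 2 of the 6 that held in every alternative run were BTC and ERRFI1. Groups of 3 libraries were not searched for single outlying values.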

How the results depend on the processing

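Members were compared under 9 kinds of alternative and with each library left out, where 426 results for single members kept direction and call, 36 lost the call, 10 gained it and 2 turned: EPGN in SCC15 (-0.19) and the difference of EREG (-0.036), both with equal library totals. Equal totals also left 10 pathway genes called higher in SCC15, against 19, and 25 called lower in SCC25, against 16. The shares of all genes moved likewise, from 30.9% to 14.8% higher in SCC15 and from 38.5% to 47.4% lower in SCC25. Among results other than fold changes of single members, 5 alternative runs turned the sign. In 1 of these, the squamocin minus DMSO difference of the TGFA share in SCC25 was 0.40 points without length division, against -0.31 with it. With 1 library left out, members with a called difference between cell lines numbered 3 to 8, with 3 without SCC25 squamocin replicate 1. The share of all genes with a called difference was taken only for the main fit, at 52.2%. The EGFR share of SCC15 moved by -3.39 to 1.40 points and the EPGN share of SCC25 by -0.015 to 0.016 points. The cause was not tested. In edgeR, 8 members were called in SCC15 and 9 in SCC25, and in DESeq2 9 and 9.

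No pairing by replicate number was seen, as deviations of same-numbered libraries correlated between -0.051 and 0.0078, and those of differently numbered ones between -0.040 and 0.049. This cannot tell whether same-numbered libraries were handled together, which no label states. With the replicate block, 8 members were called in SCC15, 9 in SCC25 and 4 between the cell lines, and EPGN in SCC15 (adjusted p = 0.0855 by limma) and the differences of EREG (0.0887) and HBEGF (0.0548) lost their call. Of all genes, the block called 4665 higher and 4451 lower of 15902 in SCC15, and 6294 and 6317 of 16539 in SCC25. EPGN was too low in SCC25 to be tested, with at most 15.6 normalized counts. Intervals cover the spread between libraries, which may be technical.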

Other observations

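EGFR levels lay far apart in the cell lines with DMSO, and the genes around it were compared after the data had been seen, as values with no test, since each line is a single established line and the tables were scaled separately. EGFR had 280.0 ± 1.36 RPM in SCC15 and 1763 ± 17.9 in SCC25 (SD, n = 3), a ratio of 6.30. Within 1 Mb on either side, 11 other protein-coding genes exceeded 1 RPM in both lines. Their ratios ran from 1.22 for PHKG1 to 2.44 for CHCHD2, and all 11 lay above the median ratio of 0.892 over 11636 protein-coding genes. VOPP1 and LANCL2, the nearest on one side, stood at 2.10 and 2.09, and SEC61G on the other side at 1.43. DNA copy number was not measured here.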
